A study of Mus musculus with 36 samples.

Results

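Schwann cells are the glia of peripheral nerves, and the genes described here are 36 mouse genes of Schwann cell, glial and myelin biology. Of these, 34 had a probe set with their name on the array, among 17097 genes in all, and each was read from the probe set with its highest mean over all arrays. Cdh19, a Schwann cell cadherin, and Prx, the myelin protein periaxin, were not analysed here. A filter that removed the lowest 25% of genes by mean level left 24 of the 34 and 12823 of the 17097. The 10 below the filter were Foxd3, Pou3f1, Olig1, S100b, Fabp7, Gfap, Cdh2, Mag, Gjb1 and Bdnf.

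The arrays measured mouse RNA of a neural fraction of the stroma of human oral carcinoma xenografts, placed orthotopically in NOD-SCIDγ (NSG) mice, which are immunodeficient. All 36 arrays come from tumours of VDH15 or SCC25, both oral carcinoma cell lines. The title of the series ties the study to dietary palmitic acid, metastatic memory and tumour innervation. In the first VDH15 experiment the tumour cells carried PLKO, a non-targeting short hairpin, and the mice received a control, a palmitic acid-rich or an oleic acid-rich diet, with 4 arrays in each group. In the SCC25 and the later VDH15 experiment (called second) the tumour cells carried either PLKO or shCD36, a hairpin against the fatty acid receptor CD36, on the control or the palmitic acid-rich diet, with 3 arrays in each group. The hairpin acts in the human tumour cells, so the mouse RNA measured here comes from cells that carried neither. The labels call each group 1 biological replicate and its arrays technical replicates, and they do not say how many tumours or mice went into one. Below, control, palmitate and oleate name the diets, and PLKO and shCD36 name the tumours.

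Schwann cell precursors depend on the transcription factor Sox10 and on neuregulin, which binds ErbB3 and signals through its partner ErbB2. Mature Schwann cells either wrap a large axon in myelin or ensheath small axons as non-myelinating (Remak) cells, which keep adhesion molecules such as L1cam and Ncam1. After nerve injury both kinds turn into repair cells, which switch off myelin genes and make trophic factors such as artemin, GDNF and BDNF.

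Levels are log2 intensities, and differences are differences of log2 levels, so a difference of 1 is a doubling. The main comparison used limma on the 11 group averages, with the experiment as a term and Benjamini-Hochberg adjustment over the 12823 genes. A gene is called when its adjusted p was under 0.05. For palmitate over control in PLKO tumours this rests on 3 pairs of averages, 1 per experiment. A further limma fit on the arrays of 1 experiment at a time measures a difference against the spread between technical replicates only, and its calls say nothing of other tumours or mice. The deposited values had been made equal between experiments, so a level in one experiment cannot be set against a level in another.

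The neural label was checked against Schwann cell markers. S100b and Foxd3 lay below the filter, and Sox10, Erbb3 and Scn7a passed it. That is 3 of the 5 Schwann cell markers with a probe set. Of other cells, 10 of 10 keratinocyte markers, 7 of 7 endothelial markers, 7 of 9 fibroblast markers and 5 of 7 macrophage and myeloid markers passed, as did 6 of 10 neuron markers and 2 of 7 melanocyte markers. So did 5 of 5 pericyte and smooth muscle markers and 5 of 7 skeletal muscle markers. Passing the filter does not by itself show that a cell type was present. In SCC25 PLKO control tumours the list means were 11.4 for keratinocyte, 8.25 for endothelial, 6.51 for Schwann cell and 5.42 for skeletal muscle markers. Erbb2 and Erbb3 are also made by epithelial cells, and Sox10 by melanocytes. In such a mixed fraction, fewer cells of a type and less RNA per cell cannot be told apart. Over the 3 experiments, the mean of the keratinocyte markers was lower and that of the fibroblast markers higher on palmitate in PLKO tumours. The fibroblast mean went from 8.54 to 9.49 in the first VDH15 experiment, from 8.00 to 10.1 in SCC25 and from 8.51 to 9.44 in the second VDH15 experiment. The part of these markers in the results below was not tested. Along the first principal component, which held 44.5% of the variance, palmitate arrays 1 and 2 of the first VDH15 experiment and PLKO palmitate array 1 of the second stood apart from their groups, and values without them are given beside the main calls and some of the larger differences they change. Of the small differences, Gfra3 (-0.01 with them and 0.01 without) and Shh (-0.02 and 0.02) changed sign, Mbp went from -0.09 to -0.05 and Gdnf from 0.04 to 0.08, as palmitate over control in PLKO tumours, and none of these 4 was called either way (limma).

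**Figure D1:**
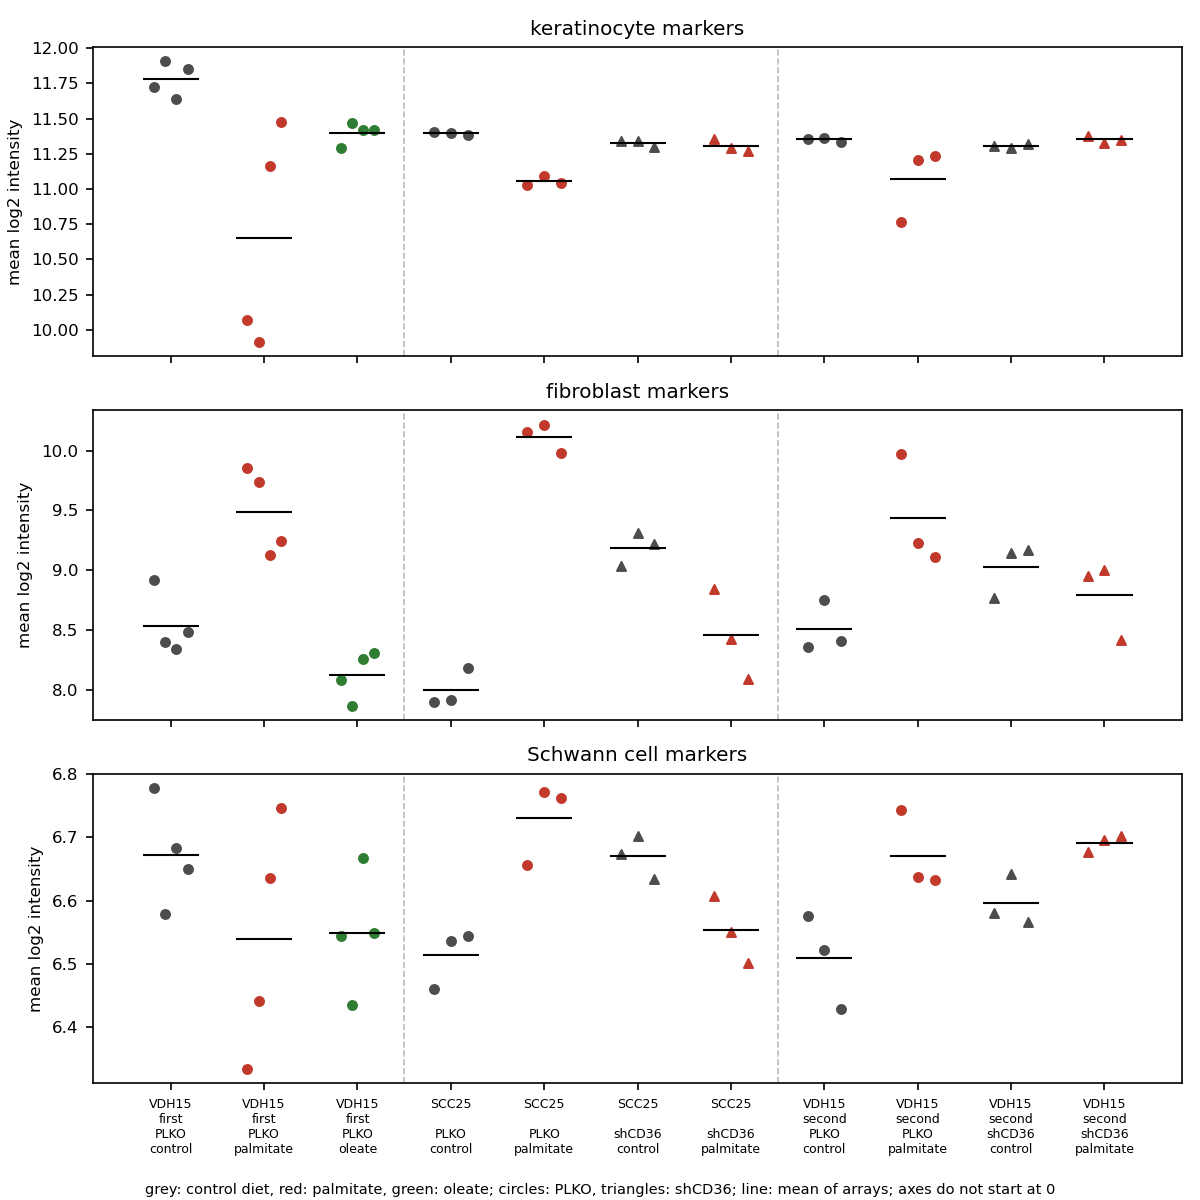
Mean log2 intensity of the keratinocyte (10 genes), fibroblast (9 genes) and Schwann cell (5 genes) marker lists on each array, by group, with a line at the mean of each group's arrays. In PLKO tumours every palmitate array lay above every control array of its experiment for the fibroblast markers, and so it was for the Schwann cell list in SCC25 and the second VDH15 experiment but not in the first. The Schwann cell list ran from 6.33 to 6.78 over all arrays and averages Scn7a, at 1.31 for palmitate over control, with Erbb3, at -0.82.

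Palmitate feeding changed 4 of the 24 genes in PLKO tumours: Scn7a and Ncam1 rose, and L1cam and Erbb2 fell. The background over all genes was 6.92% called, 3.65% higher and 3.27% lower. The median difference of the 24 was -0.01, against -0.03 over all genes, and 12 of the 24 had an unadjusted p under 0.05, as did 3431 of all genes. Of the 5 tested identity genes (Sox10, Erbb3, Scn7a, L1cam, Ncam1) 3 were called, 2 higher and 1 lower, with a median of 0.02. Of the 6 tested myelin genes (Mbp, Pmp22, Cnp, Drp2, Mal, Cadm4) 0 were called, with a median of -0.11 and 1 (Cadm4) at an unadjusted p under 0.05. Of the 7 tested repair genes (Ngfr, Gap43, Sox2, Artn, Gdnf, Shh, Nes) 0 were called, with a median of -0.02 and 4 (Gap43, Sox2, Artn, Nes) at an unadjusted p under 0.05, by limma. Without the 3 arrays that stood apart the medians of the 3 groups were 0.04, -0.05 and 0.08.

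**Figure D2:**
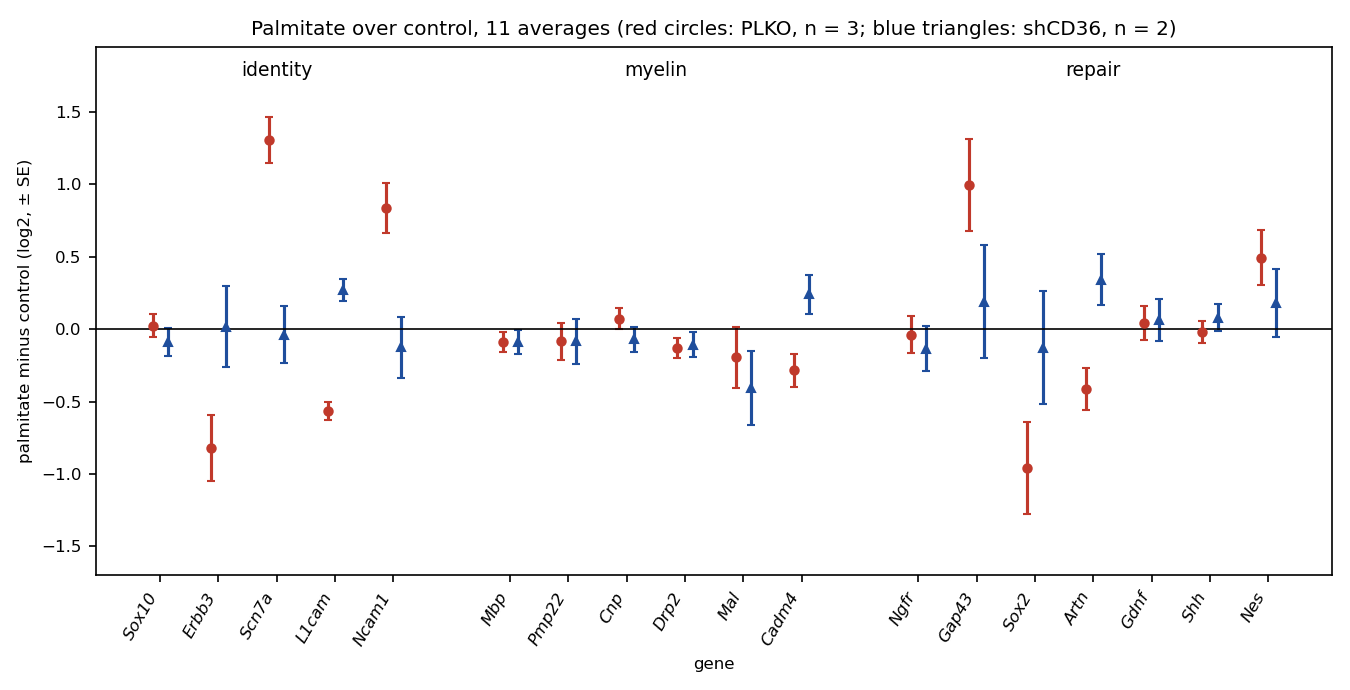
Palmitate minus control (log2, with the standard error of the limma fit on 11 averages) for the tested identity, myelin and repair genes, in PLKO tumours (red circles, 3 experiments) and shCD36 tumours (blue triangles, 2 experiments). In PLKO tumours Scn7a lay highest at 1.31 and Sox2 lowest at -0.96, the myelin genes lay between -0.28 and 0.07, and the shCD36 values lay between -0.40 and 0.34.

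L1cam, an adhesion molecule of axons and non-myelinating Schwann cells, fell with palmitate in PLKO tumours. Its upstream sequence is shown with those of Erbb2 and Scn7a, since these are the called genes with an entry among RefSeq promoters of GRCm38.p6, where 22 of the 36 genes were found. Each run holds the 250 bases before a transcription start, read 5′ to 3′ on the gene's strand. L1cam has a further start in that table, not shown. Capitals mark matches, on either strand, to the GC box (GGGCGG), the box spelled CCAAT, the core of SOX factor sites (ACAAAG) or the TATA box (TATAAA), and no 2 matches overlap here.
L1cam, chrX:73880791-73881040, minus strand: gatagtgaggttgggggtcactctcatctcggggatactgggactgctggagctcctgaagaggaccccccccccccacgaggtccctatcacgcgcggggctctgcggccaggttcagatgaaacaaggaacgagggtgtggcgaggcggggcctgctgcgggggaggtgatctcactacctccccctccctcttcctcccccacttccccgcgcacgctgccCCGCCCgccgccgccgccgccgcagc
Erbb2, chr11:98412234-98412483, plus strand: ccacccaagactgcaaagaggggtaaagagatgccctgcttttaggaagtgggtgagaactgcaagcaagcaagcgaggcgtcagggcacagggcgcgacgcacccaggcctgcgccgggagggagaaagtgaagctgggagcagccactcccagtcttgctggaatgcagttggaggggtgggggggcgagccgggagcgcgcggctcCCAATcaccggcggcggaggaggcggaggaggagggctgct
Scn7a, chr2:66784911-66785160, minus strand: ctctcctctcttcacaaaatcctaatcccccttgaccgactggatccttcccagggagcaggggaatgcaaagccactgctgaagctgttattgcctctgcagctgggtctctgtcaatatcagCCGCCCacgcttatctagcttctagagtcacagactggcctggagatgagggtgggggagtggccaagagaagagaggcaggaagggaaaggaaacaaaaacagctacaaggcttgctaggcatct
L1cam and Scn7a each held 1 GC box and Erbb2 held 1 CCAAT, while the SOX core and the TATA box were not among the letters of these windows. Of 32851 promoter windows of that length, 32.7% held the GC box, 33.8% the letters CCAAT, 16.5% the SOX core and 12.4% the TATA box. Such matches describe letters and are not binding sites.

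L1cam read 7.63, 7.64, 7.40 and 7.31 on control, 6.87, 6.99, 7.03 and 7.03 on palmitate, and 7.46, 7.53, 7.38 and 7.57 on oleate in the first VDH15 experiment. SCC25 PLKO tumours gave 7.60, 7.48 and 7.62 on control and 6.92, 7.01 and 6.81 on palmitate. In the second VDH15 experiment the PLKO tumours gave 7.38, 7.57 and 7.56 on control and 6.65, 7.17 and 7.09 on palmitate. Every palmitate array lay below every control array of its experiment, and the oleate arrays lay among the controls. The fitted difference was -0.57 ± 0.06 (SE, 3 experiments), 1.48-fold lower, with a limma adjusted p of 0.0146. Without SCC25 or without the second VDH15 experiment it was -0.53 or -0.58 and not called, with limma adjusted p of 0.218 and 0.169. Without the 3 arrays that stood apart it was -0.50 ± 0.07 and called, with a limma adjusted p of 0.0277. A further L1cam probe set gave -0.47, lower in all 3 experiments.

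In shCD36 tumours the palmitate arrays of L1cam were not lower. In SCC25 shCD36 tumours L1cam read 7.30, 7.15 and 7.40 on control and 7.70, 7.50 and 7.58 on palmitate. Those of the second VDH15 experiment read 7.33, 7.29 and 7.35 on control and 7.66, 7.33 and 7.67 on palmitate. The palmitate arrays lay above all controls in SCC25 and overlapped with them in the second VDH15 experiment, where the lowest palmitate array sat within the control range. Palmitate over control in shCD36 tumours was 0.27 ± 0.08 over both experiments, with an unadjusted p of 0.00964 and a limma adjusted p of 0.9998. The difference between the palmitate effects of shCD36 and PLKO tumours was 0.84 ± 0.10, with a limma adjusted p of 0.0659.

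On palmitate itself L1cam was 0.62 ± 0.07 higher in shCD36 than in PLKO tumours, with a limma adjusted p of 0.0382. It was the 1 gene of 24 called in that comparison, against 0.374% of all genes. It was not called there without the 3 arrays that stood apart, without the arrays numbered 1, or without SCC25 or the second VDH15 experiment.

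Erbb2, the signalling partner of ErbB3 in neuregulin responses, fell with palmitate as well. It read 7.39, 7.40, 7.62 and 7.35 on control, 6.30, 6.58, 7.01 and 6.73 on palmitate, and 7.47, 7.24, 7.32 and 7.09 on oleate in the first VDH15 experiment. In SCC25 PLKO tumours it read 7.24, 7.30 and 7.33 on control and 6.67, 6.82 and 6.82 on palmitate. The second VDH15 experiment gave 7.48, 7.37 and 7.19 on control and 6.34, 7.26 and 6.74 on palmitate. Palmitate arrays lay below all controls in the first VDH15 experiment and SCC25, and 1 palmitate array of the second VDH15 experiment lay within the control range. The fitted difference was -0.62 ± 0.07, 1.54-fold lower, with a limma adjusted p of 0.0158. Without SCC25 or without the second VDH15 experiment it was -0.68 or -0.65 and not called, with limma adjusted p of 0.193 and 0.172. SCC25 shCD36 tumours gave 7.19, 7.20 and 7.32 on control and 7.37, 7.18 and 7.25 on palmitate. Those of the second VDH15 experiment gave 7.15, 7.21 and 7.28 on control and 7.21, 7.20 and 7.27 on palmitate. The groups overlapped in both. In shCD36 tumours the difference was 0.02 ± 0.09, and the difference between the effects was 0.65 ± 0.12 with a limma adjusted p of 0.0989.

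ErbB3, the neuregulin-binding receptor, was lower on palmitate than on control in PLKO tumours of all 3 experiments but was not called. Erbb3 read 9.54, 9.58, 9.77 and 9.67 on control, 7.04, 7.36, 8.79 and 9.0 on palmitate, and 9.59, 9.59, 9.60 and 9.53 on oleate in the first VDH15 experiment. SCC25 PLKO tumours gave 8.93, 9.03 and 9.08 on control and 8.65, 8.81 and 8.82 on palmitate. Readings in the second VDH15 experiment were 9.15, 9.11 and 9.07 on control and 8.20, 8.61 and 8.68 on palmitate. Palmitate arrays lay below all controls in each experiment, and the lowest readings came from the arrays that stood apart. Over the 3 experiments the difference was -0.82 ± 0.23, with a limma adjusted p of 0.0772. Without those 3 arrays it was -0.49 ± 0.10, with a limma adjusted p of 0.0410. A further Erbb3 probe set gave -0.98 with all arrays kept, with a limma adjusted p of 0.0486 among all probe sets with 1 gene.

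In shCD36 tumours the Erbb3 group means on control and palmitate were 8.93 and 8.96 in SCC25 and 9.02 and 9.03 in the second VDH15 experiment. Nrg1, the neuregulin ligand itself, was not called in PLKO tumours. Its difference was -0.30 in the first VDH15 experiment, 0.39 in SCC25 and 0.43 in the second VDH15 experiment, and the fitted value was 0.17 ± 0.22 (limma adjusted p = 0.673). Without the arrays that stood apart the Nrg1 difference was 0.02 in the first VDH15 experiment and 0.62 in the second, where it was then called within the experiment (limma adjusted p = 0.00385), and the fitted value was 0.34 ± 0.20. In SCC25 the Nrg1 arrays on palmitate lay above the controls in both PLKO and shCD36 tumours, with group means of 8.06 against 7.67 and 8.31 against 7.75, beyond the spread between technical replicates in each.

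Scn7a, a sodium channel relative found in non-myelinating Schwann cells, rose the most of the 4 called genes. It read 8.31, 7.11, 7.21 and 7.64 on control, 8.81, 8.85, 8.51 and 8.56 on palmitate, and 7.17, 6.76, 7.49 and 7.22 on oleate in the first VDH15 experiment. In SCC25 PLKO tumours it read 7.14, 7.41 and 7.55 on control and 8.47, 9.16 and 8.95 on palmitate. In the second VDH15 experiment it read 7.57, 7.60 and 7.28 on control and 9.74, 8.28 and 8.38 on palmitate. Palmitate and control arrays did not overlap in any of the 3 experiments. The fitted difference was 1.31 ± 0.16, 2.47-fold, with a limma adjusted p of 0.0174. Without SCC25 or without the second VDH15 experiment it was 1.22 or 1.3 and not called, with limma adjusted p of 0.167 and 0.0878. Without the 3 arrays that stood apart it was 1.10 ± 0.18 and called, with a limma adjusted p of 0.0311. Another 2 Scn7a probe sets, whose mean levels of 4.77 and 4.01 lie below the filter of 5.19, gave 0.12 and 0.20, and the mean of the 3 probe sets gave 0.54.

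In SCC25 shCD36 tumours Scn7a read 8.22, 8.31 and 8.14 on control and 8.00, 7.90 and 7.34 on palmitate. Those of the second VDH15 experiment read 7.70, 7.89 and 7.67 on control and 7.93, 8.48 and 8.05 on palmitate. All palmitate arrays lay below the controls in SCC25 and above them in the second VDH15 experiment. The fitted difference in shCD36 tumours was -0.04 ± 0.20, and the difference between the effects was -1.34 ± 0.25 with a limma adjusted p of 0.105. On the control diet, the SCC25 shCD36 arrays lay above all PLKO arrays, with means 0.85 apart, beyond the technical spread. The fibroblast marker mean was higher there too, 9.19 against 8.00, and its part in the Scn7a values was not tested.

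Ncam1, the neural cell adhesion molecule, rose with palmitate, less evenly. It read 6.91, 7.01, 7.30 and 7.25 on control, 9.02, 8.86, 7.70 and 7.93 on palmitate, and 6.76, 6.62, 6.59 and 7.14 on oleate in the first VDH15 experiment. SCC25 PLKO tumours gave 7.28, 7.46 and 7.44 on control and 8.52, 8.03 and 8.11 on palmitate. The second VDH15 experiment gave 7.49, 7.08 and 7.86 on control and 8.06, 7.73 and 7.89 on palmitate. The groups were apart in the first VDH15 experiment and SCC25 and overlapped in the second VDH15 experiment. Over the 3 experiments the difference was 0.84 ± 0.17, 1.78-fold, with a limma adjusted p of 0.0404. The call was lost without any 1 of the experiments, with differences from 0.62 to 1.04, and without the arrays numbered 1 or 4. Without the 3 arrays that stood apart it was 0.62 ± 0.14 and no longer called, with a limma adjusted p of 0.0531. The mean of its 6 probe sets gave 0.34, with a limma adjusted p of 0.0831.

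Ncam1 in SCC25 shCD36 tumours read 7.94, 7.34 and 7.46 on control and 7.69, 7.83 and 7.61 on palmitate. Those of the second VDH15 experiment read 7.79, 8.19 and 7.88 on control and 7.10, 7.80 and 7.82 on palmitate. The groups overlapped in both. The fitted difference in shCD36 tumours was -0.12 ± 0.21, and the difference between the effects was -0.96 ± 0.27 with a limma adjusted p of 0.202.

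**Figure D3:**
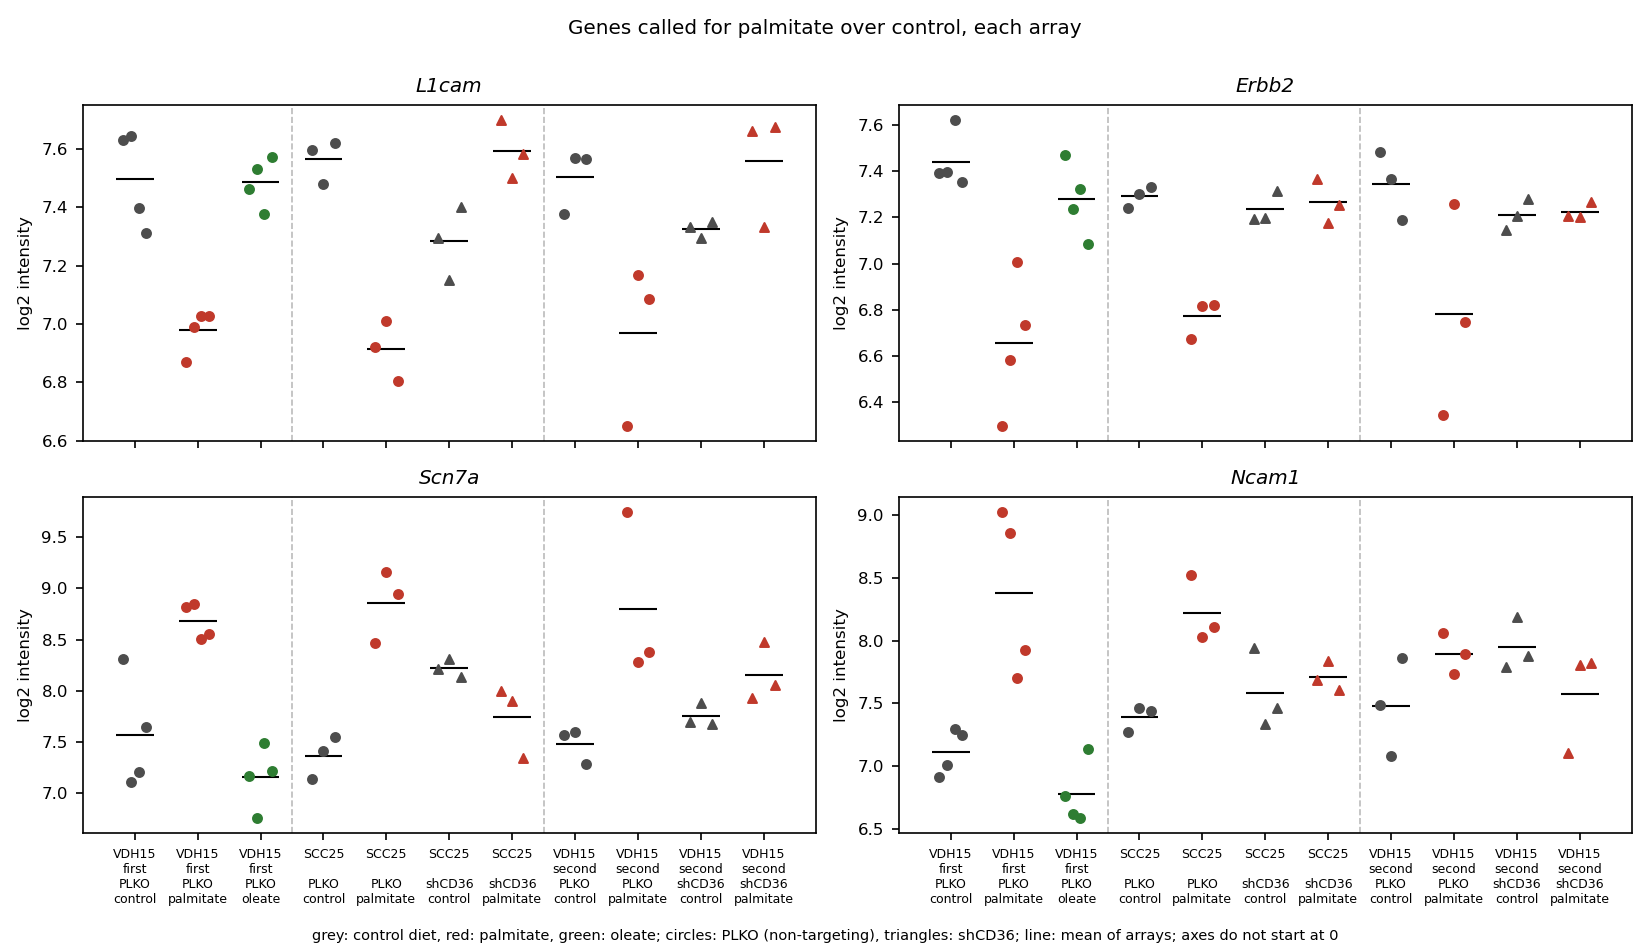
Log2 intensity of L1cam, Erbb2, Scn7a and Ncam1 on each array, by group, with a line at each group mean. In PLKO tumours the palmitate arrays (red circles) lay below the controls for L1cam and above them for Scn7a in all 3 experiments, while in shCD36 tumours (triangles) the fitted palmitate difference was 0.27 for L1cam and -0.04 for Scn7a.

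Sox10, the transcription factor that defines the Schwann cell lineage, was nearly flat. Its arrays ran from 6.67 to 7.07 over all 36 with a median of 6.86. Since levels had been made equal between experiments, this range speaks only for differences within them. In PLKO tumours palmitate over control was 0.03 in the first VDH15 experiment, -0.09 in SCC25 and 0.13 in the second VDH15 experiment. Over the 3 experiments it was 0.02 ± 0.08, with a limma adjusted p of 0.885, and all 3 Sox10 probe sets gave values between -0.04 and 0.03. Its group means lay between 6.77 and 6.98.

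The 10 genes below the filter of 5.19 had mean levels between 4.28 for Mag, a myelin-associated glycoprotein, and 5.17 for Pou3f1, a factor of promyelinating Schwann cells. The others were the lineage factors Foxd3 and Olig1, the glial markers S100b, Fabp7 and Gfap, the adhesion molecule Cdh2, the myelin channel Gjb1 and the neurotrophin Bdnf. S100b group means ran from 4.73 to 5.01, with arrays from 4.58 to 5.21. These 10 were not tested. Cdh2 and Fabp7 had the widest arrays, up to 5.70 and 6.24, and the palmitate over control differences of both in the first VDH15 experiment were 0.67 and 0.41.

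Sox2, a factor of immature and repair Schwann cells that is also made by epithelial progenitors, showed large differences that varied between experiments. It read 6.5, 6.20, 6.32 and 6.01 on control, 4.31, 4.51, 4.99 and 4.63 on palmitate, and 5.83, 5.69, 5.64 and 5.93 on oleate in the first VDH15 experiment. In SCC25 PLKO tumours it read 5.87, 5.88 and 5.75 on control and 5.36, 5.78 and 5.49 on palmitate. Readings in the second VDH15 experiment were 5.89, 5.67 and 5.39 on control and 4.31, 4.86 and 4.95 on palmitate. The groups were apart in both VDH15 experiments and overlapped in SCC25. The fitted difference was -0.96 ± 0.32, with a limma adjusted p of 0.117. The keratinocyte marker mean was lower on palmitate in the same tumours, 10.7 against 11.8 in the first VDH15 experiment, 11.1 against 11.4 in SCC25 and 11.1 against 11.4 in the second VDH15 experiment, and its part was not tested. The arrays that stood apart read lowest for these markers. They read 10.1 and 9.91 in the first VDH15 experiment, against 11.2 and 11.5 on its other palmitate arrays. In the second the reading was 10.8, against 11.2 and 11.2.

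Gap43, a growth cone protein that repair Schwann cells also make, was higher on palmitate in every PLKO experiment without being called. It read 9.34, 9.71, 9.04 and 8.86 on control, 10.96, 10.95, 10.34 and 10.57 on palmitate, and 9.73, 9.62, 9.43 and 9.96 on oleate in the first VDH15 experiment. SCC25 PLKO tumours gave 9.11, 9.19 and 9.30 on control and 10.13, 10.24 and 10.25 on palmitate. In the second VDH15 experiment it read 9.94, 9.99 and 10.02 on control and 10.59, 10.54 and 10.38 on palmitate. No palmitate array overlapped a control array in any of the 3. The fitted difference was 1.00 ± 0.32, with a limma adjusted p of 0.104, and 0.90 ± 0.29 without the 3 arrays that stood apart.

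SCC25 shCD36 tumours also had higher Gap43 on palmitate, reading 9.11, 9.59 and 9.69 on control and 10.17, 10.08 and 9.97 on palmitate. Those of the second VDH15 experiment read 9.47, 9.10 and 9.45 on control and 8.61, 9.53 and 9.20 on palmitate. The groups were apart in SCC25 and overlapped in the second VDH15 experiment. The difference between the effects was -0.81 ± 0.50, with a limma adjusted p of 0.484.

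Among the myelin sheath genes the differences were small. Mbp, a structural protein of compact myelin, had group means between 6.56 and 6.77 and a palmitate difference in PLKO tumours of -0.09 ± 0.07 (limma adjusted p = 0.452). Cnp, an enzyme of myelin-forming glia, gave 0.07 ± 0.07, and Drp2, a periaxin-binding scaffold protein, gave -0.13 ± 0.07. Cadm4, the Schwann cell partner of axonal adhesion molecules, gave -0.28 ± 0.11 (limma adjusted p = 0.163). None of these 4 was called.

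Pmp22, a compact myelin protein that other cell types also make, had opposite signs between experiments. It read 9.90, 9.93, 9.95 and 9.98 on control and 9.46, 9.51, 9.69 and 9.84 on palmitate in the first VDH15 experiment. In SCC25 PLKO tumours it read 9.73, 9.66 and 9.90 on control and 9.99, 9.96 and 9.93 on palmitate. Every palmitate array was below the controls in the former and above them in the latter, and the fitted value was -0.08 ± 0.13. Without the arrays that stood apart the difference in the first VDH15 experiment went from -0.32 to -0.18 and the fitted value was -0.04 ± 0.11.

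Mal, a proteolipid of myelin and of epithelia, read 9.13, 9.19, 9.56 and 8.92 on control and 7.55, 7.79, 9.07 and 9.09 on palmitate in the first VDH15 experiment. The low palmitate readings were those of the arrays that stood apart. Its fitted palmitate difference in PLKO tumours was -0.20 ± 0.21, and without those arrays it was 0.25 ± 0.13.

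Of the trophic factors and their receptors, 6 passed the filter and 0 were called for palmitate in PLKO tumours (limma), with 2 (Ret and Artn) at an unadjusted p under 0.05. Artn, the ligand artemin, read 7.53, 7.49, 7.61 and 7.63 on control, 6.56, 6.42, 6.94 and 7.10 on palmitate, and 7.22, 7.27, 7.50 and 7.31 on oleate in the first VDH15 experiment. SCC25 PLKO tumours gave 7.32, 7.23 and 7.48 on control and 6.88, 6.94 and 6.89 on palmitate. The second VDH15 experiment gave 7.17, 7.21 and 7.19 on control and 7.48, 7.0 and 7.11 on palmitate. The groups were apart in the first VDH15 experiment and SCC25 and overlapped in the second VDH15 experiment, and the fitted value was -0.41 ± 0.14 (limma adjusted p = 0.127).

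In SCC25 shCD36 tumours Artn had the other sign, with 6.91, 6.88 and 6.85 on control and 7.11, 7.36 and 7.27 on palmitate and no overlap. Ret, the signalling receptor of the GDNF family, gave 0.46 ± 0.12 for palmitate in PLKO tumours (limma adjusted p = 0.065). Within scan batches of the first VDH15 experiment that Ret difference was 0.35 and 1.22. Its co-receptor Gfra1 gave 0.59 ± 0.30 (limma adjusted p = 0.261), with 1.32, 0.50 and -0.04 in the first VDH15 experiment, SCC25 and the second VDH15 experiment. Further Gfra1 probe sets, with mean levels of 6.17 and 4.64, gave -0.02 and 0.13. Gfra3, the artemin co-receptor, gave -0.01 ± 0.07, and the ligand Gdnf gave 0.04 ± 0.12.

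Ngfr, the low-affinity neurotrophin receptor p75 of immature and repair Schwann cells, gave -0.04 ± 0.13, with means of 7.98 on control, 7.57 on palmitate and 8.16 on oleate in the first VDH15 experiment. Its first VDH15 palmitate arrays ran from 6.88 to 8.16 and overlapped with the control arrays, from 7.80 to 8.25. Without the arrays that stood apart the fitted Ngfr difference had the other sign, at 0.17 ± 0.08 (limma adjusted p = 0.279). Nes, the intermediate filament nestin, read 5.49, 6.20, 5.88 and 5.62 on control and 7.98, 7.65, 6.0 and 6.16 on palmitate in the first VDH15 experiment. Its high readings were those of the arrays that stood apart, and the fitted difference went from 0.49 ± 0.19 to 0.14 ± 0.08 without them. Dhh, the hedgehog ligand that Schwann cells send to the perineurium, gave 0.36 ± 0.09 (limma adjusted p = 0.0598), and Shh gave -0.02 ± 0.08. A further Dhh probe set, with a mean level of 5.16, gave 0.04. The Dhh group means on control and palmitate were 5.38 and 5.72 in the first VDH15 experiment, 5.38 and 5.61 in SCC25 PLKO tumours and 5.35 and 5.87 in the second VDH15 PLKO tumours. In shCD36 tumours they were 5.45 and 5.67 in SCC25 and 5.34 and 5.54 in the second VDH15 experiment, and on oleate 5.80. PLKO arrays overlapped between the diets in the first VDH15 experiment and were apart in the others.

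**Figure D4:**
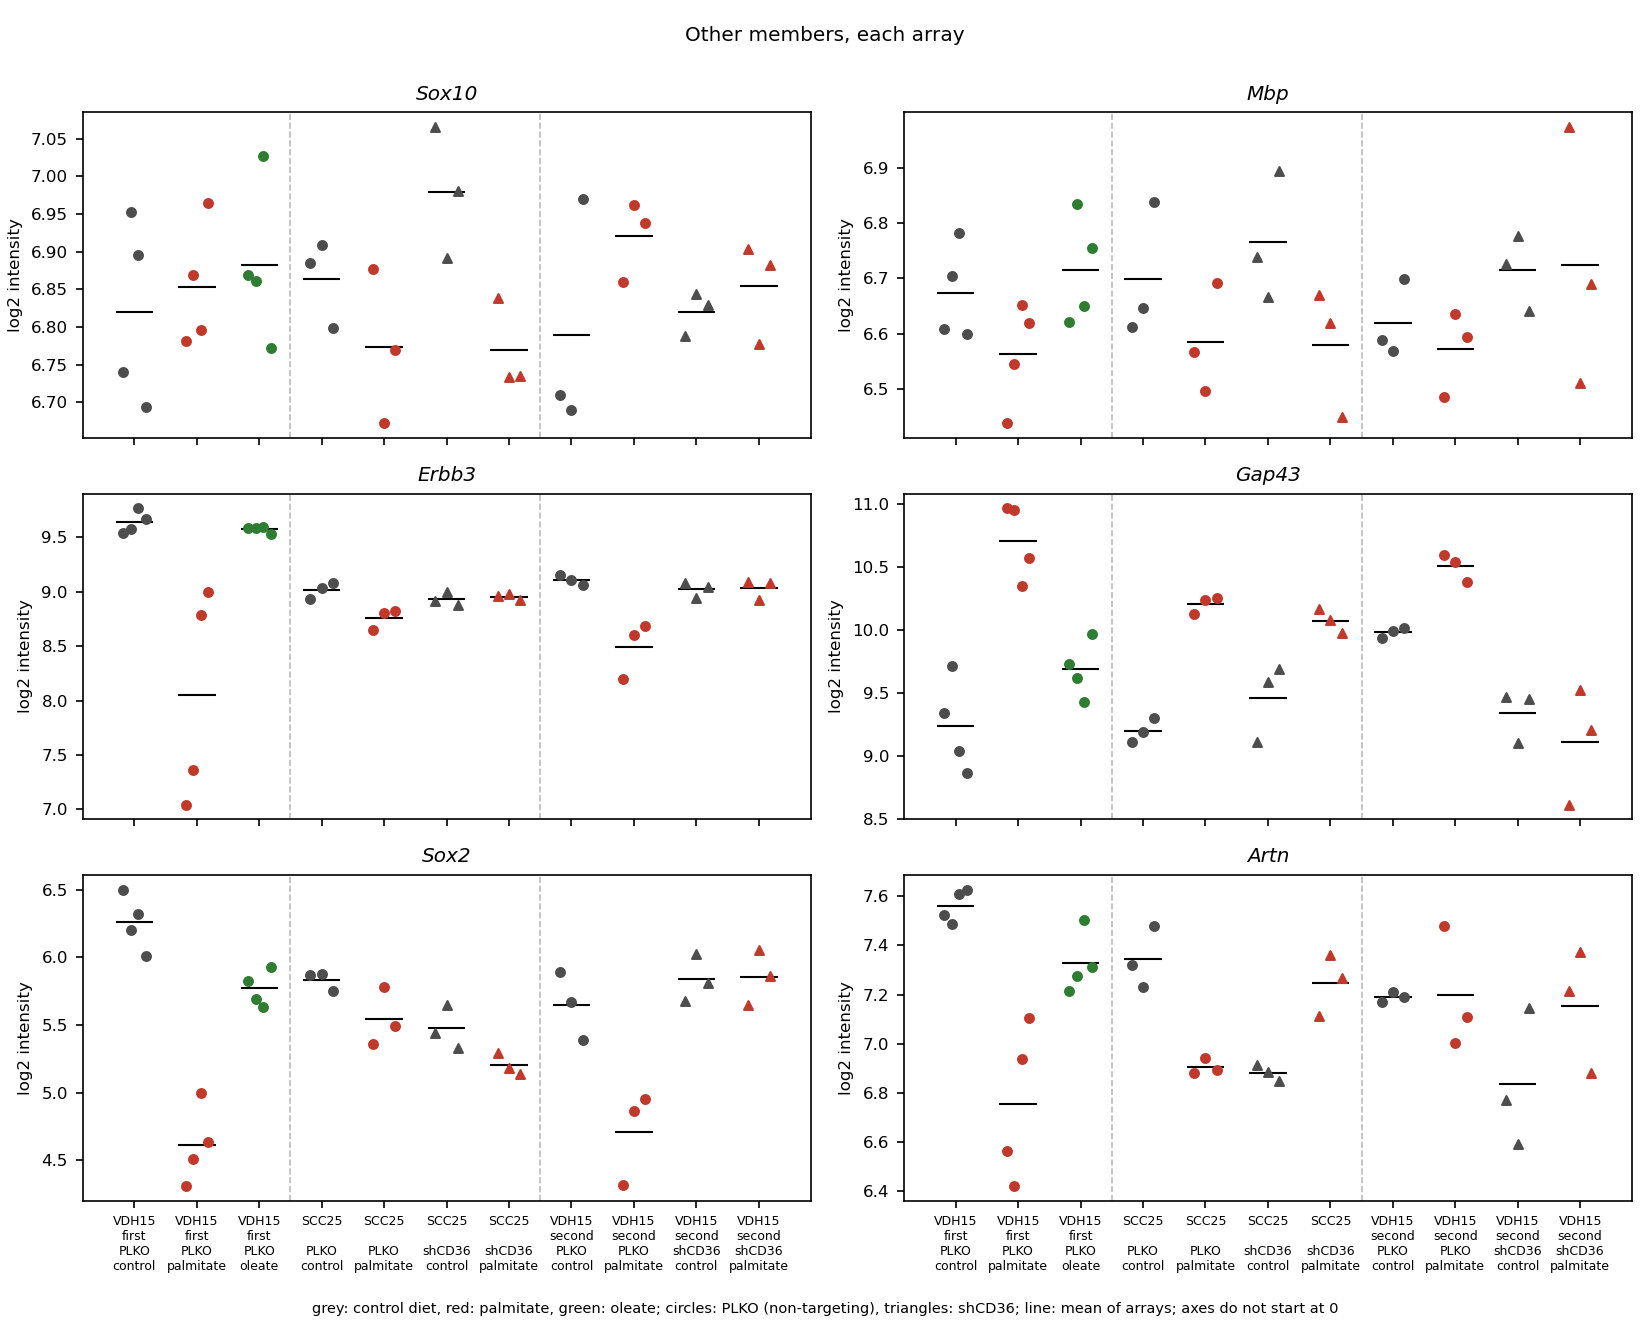
Log2 intensity of Sox10, Mbp, Erbb3, Gap43, Sox2 and Artn on each array, by group, with a line at each group mean. In PLKO tumours the palmitate arrays lay below the controls for Erbb3 and above them for Gap43 in all 3 experiments, while Sox10 stayed between 6.67 and 7.07.

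Set against the technical spread alone, more calls were made within the first VDH15 experiment, SCC25 and the second VDH15 experiment, among these genes and among all. In the first VDH15 experiment 12 of the 24 were called for palmitate over control, against 46.3% of all genes, with 6 higher (Gap43, Gfra1, Ncam1, Nes, Ret, Scn7a) and 6 lower (Artn, Erbb2, Erbb3, L1cam, Pmp22, Sox2). Without the arrays that stood apart Nes was no longer called there (0.28, limma adjusted p = 0.268, against 1.15 with them), while Cadm4 (-0.57) and Drp2 (-0.31) were. In SCC25 PLKO tumours 9 of the 24 were called, against 19.1%, with 5 higher (Gap43, Ncam1, Nrg1, Ret, Scn7a) and 4 lower (Artn, Erbb2, Erbb3, L1cam). In the second VDH15 experiment 6 were called in PLKO tumours, against 14.4%, with Dhh and Scn7a higher and Erbb2, Erbb3, L1cam and Sox2 lower. Without the array that stood apart 4 were called in that experiment: Scn7a and Nrg1 higher, and Erbb3 and Sox2 lower. Called in the same direction in all 3 experiments were 4 of the 24 (Scn7a, L1cam, Erbb2 and Erbb3), against 6.96% of all genes. Without the arrays that stood apart L1cam (-0.38, limma adjusted p = 0.0526) and Erbb2 (-0.35, limma adjusted p = 0.137) were no longer called in the second VDH15 experiment, which leaves Scn7a and Erbb3. Shares of all genes called without those arrays are not given here. Arrays without overlap in the same direction in all 3 were found for 4 of the 24 (Scn7a, L1cam, Erbb3 and Gap43), against 10.8%.

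Within the scan batches of the first VDH15 experiment, the only experiment with more than 1, the palmitate differences kept their sign. They were -0.56 and -0.47 for L1cam, and -0.99 and -0.58 for Erbb2. For Scn7a they were 0.93 and 1.3, and for Ncam1 1.37 and 1.15. Some smaller differences changed sign, such as Cadm4 (0.14 and -0.41) and Gdnf (0.08 and -0.33). Hybridisation batches coincide with the experiments.

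In shCD36 tumours palmitate gave no call on the averages. Over both experiments 0 of the 24 were called on the averages (limma), against 0% of all genes, with 1 of the 24 and 282 of all genes at an unadjusted p under 0.05. In SCC25 shCD36 tumours 4 of the 24 were called within the experiment, all higher (Artn, Gap43, L1cam, Nrg1), against 6.36% of all genes. In the second VDH15 experiment 0 were called in shCD36 tumours (limma on arrays), against 1.26%, with 3 at an unadjusted p under 0.05.

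The palmitate effect itself differed between shCD36 and PLKO tumours beyond the threshold for 0 of the 24 (limma), against 0% of all genes, with 7 of the 24 and 2011 of all genes at an unadjusted p under 0.05. Those 7 were L1cam, Erbb2, Scn7a, Ncam1, Artn, Cadm4 and Ret. The shCD36 and PLKO effects rest on different arrays, and for each of the 4 called genes the shCD36 value lay nearer to 0 or on its other side. The 4 were picked by their PLKO difference, which alone makes a second value nearer to 0 likely. No effect of the hairpin can be read from this.

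Comparing the tumours on 1 diet, shCD36 over PLKO on control gave 0 of the 24 called on the averages (limma), against 0% of all genes, with 3 of the 24 (Artn at -0.51, L1cam at -0.22 and Scn7a at 0.51) and 435 of all genes at an unadjusted p under 0.05. Within SCC25 that comparison gave 3 of the 24, Scn7a higher and Artn and Sox2 lower, against 9.49% of all genes. Within the second VDH15 experiment it gave 0 (limma on arrays), against 0.663%, with 4 at an unadjusted p under 0.05.

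On palmitate the same comparison gave 8 of the 24 in SCC25, against 14.5% of all genes, with Artn, Erbb2, L1cam and Nrg1 higher and Gfra1, Ncam1, Scn7a and Sox2 lower. It gave 8 in the second VDH15 experiment, against 25%, with Cadm4, Erbb3, Gfra1, L1cam and Sox2 higher and Gap43, Ngfr and Nrg1 lower. L1cam was the 1 gene called in the same direction in both, while Gfra1, Nrg1 and Sox2 were called in opposite directions. Without the array that stood apart 6 were called in the second VDH15 experiment, and Cadm4 and Gfra1 were not. Shares of all genes called in both experiments, or without that array, are not given here. Sox2 was 0.34 lower in shCD36 than in PLKO tumours in SCC25 and 1.14 higher in the second VDH15 experiment, as differences of means of 3 arrays.

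**Figure D5:**
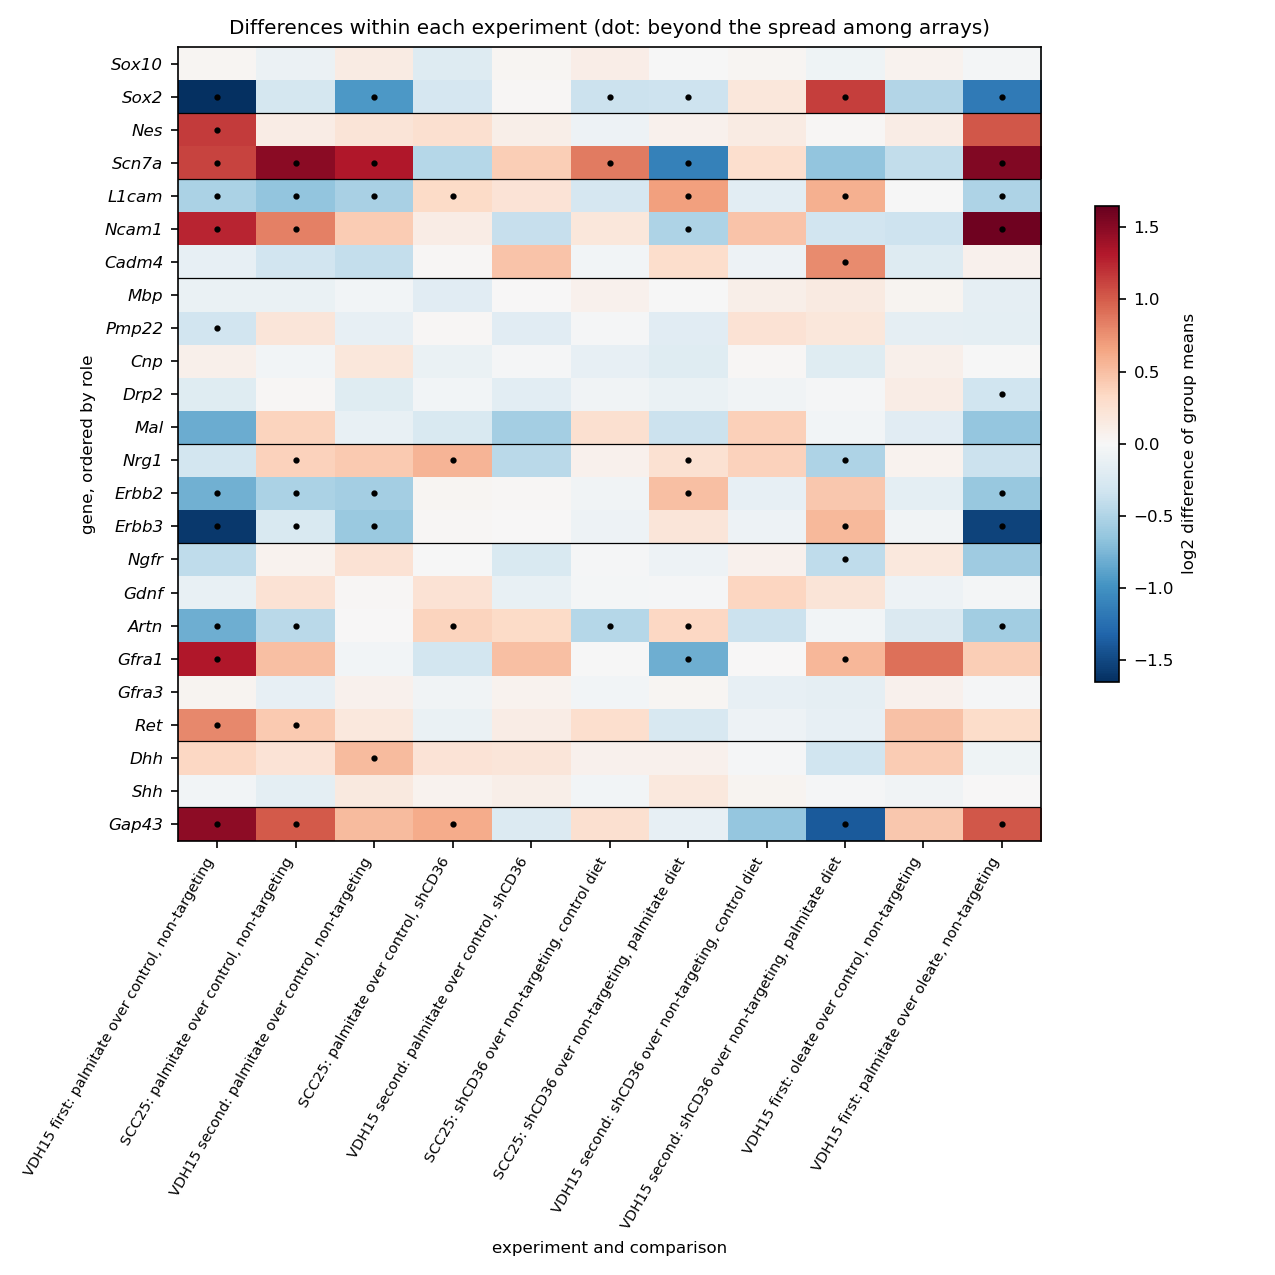
Log2 differences of group means for the 24 tested genes, ordered by role, in each of 11 comparisons within an experiment, with a dot where limma on the arrays of that experiment called the gene. The 3 PLKO palmitate over control columns at the left hold 12, 9 and 6 dots, and the oleate over control column holds 0.

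Oleate, given in the first VDH15 experiment only, gave no call over control. On the averages oleate is 1 group of 1 experiment, so the errors and p-values of its comparisons there come from the spread of the other groups. Oleate over control gave 0 of the 24 called on the averages (limma), against 0% of all genes, with 1 of the 24 (Dhh, 0.43 ± 0.14) and 225 of all genes at an unadjusted p under 0.05. Within the experiment it gave 0 of the 24 (limma on arrays), against 1.23%, with 4 at an unadjusted p under 0.05. Palmitate over oleate gave 0 on the averages (limma), against 0.039%, with 6 of the 24 and 1592 of all genes at an unadjusted p under 0.05. Within the experiment it gave 9 of the 24, against 39.1%, with Gap43, Ncam1 and Scn7a higher and Artn, Drp2, Erbb2, Erbb3, L1cam and Sox2 lower. Palmitate over oleate on the averages was 1.62 ± 0.25 for Scn7a, 1.39 ± 0.27 for Ncam1 and -0.53 ± 0.10 for L1cam, with limma adjusted p of 0.121, 0.170 and 0.150. Palmitate over control and palmitate over oleate share the palmitate arrays.

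Other genes of the same pathways, taken from lists, were read for palmitate in PLKO tumours, where 6.92% of all genes were called. Of 17 other Schwann cell and myelin genes 2 were called, both higher: Gpm6b, a neural membrane glycoprotein, by 1.27 ± 0.18, and Lama2, a laminin chain of the Schwann cell basement membrane, by 0.49 ± 0.09, with limma adjusted p of 0.0203 and 0.0311. The median of the 17 was -0.05. Adgrg6, a receptor needed for myelination, gave -0.29 with a limma adjusted p of 0.0583.

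Of 12 other repair genes 4 were called. Il6 (1.39 ± 0.26) and Lif (0.70 ± 0.12), both cytokines, rose with Tnc (0.61 ± 0.13), an extracellular matrix glycoprotein, and Sprr1a (-2.11 ± 0.29), a regeneration gene of neurons that keratinocytes also make, fell. Their limma adjusted p were 0.0340, 0.0293, 0.0455 and 0.0192. The median of the 12 was -0.09.

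Of 8 other neuregulin and ErbB genes 1 was called, the ErbB2 adaptor Grb7, lower by 0.65 on the log2 scale (-0.65 ± 0.13, limma adjusted p = 0.0355). Egfr gave -0.33 ± 0.10 and the neuregulin-cleaving protease Bace1 gave 0.43 ± 0.16, neither called. Of 8 other neurotrophin and GDNF family genes and 10 other hedgehog genes 0 were called (limma), with 2 of each at an unadjusted p under 0.05. Those were Sort1 (-0.79), a neurotrophin co-receptor, and the ligand Nrtn (-0.15) in the former, and Gli2 (-0.37), a hedgehog effector, and Hhip (-0.36), a hedgehog-binding inhibitor, in the latter. The median of the former was -0.19 and that of the latter -0.12, against -0.03 over all genes.

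Genes of other cell types changed in the same comparison. Among the fibroblast markers 3 of 7 were called, all higher, as were 2 of 7 endothelial markers, 2 of 5 macrophage and myeloid markers and 1 of 5 pericyte and smooth muscle markers, Mcam. Called lower were 2 of 10 keratinocyte markers and 2 of 6 neuron markers, Tubb3 (-1.16 ± 0.14) and Map2 (-0.69 ± 0.10), with limma adjusted p of 0.0171 and 0.0213, against 6.92% of all genes called in either direction. The other 4 neuron markers were higher and not called: Stmn2 (0.23), Uchl1 (0.21), Rbfox3 (0.02) and Prph (0.01). The median of the 6 neuron markers was 0.01. In shCD36 tumours, where 0 of all genes were called (limma, with 282 at an unadjusted p under 0.05), the median palmitate difference of the 7 fibroblast markers was -0.75, against 1.65 in PLKO tumours. Whether these cells supply any of the 4 called genes was not tested.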

How the data were processed

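The deposited values are log2 intensities, which the authors made with RMA (affy), per the submitters' processing notes; versions and genome build are not given in the sources used here. In the deposited values the hybridisation and scan batch terms were 0 (under 1e-06) in 100% of 45141 probe sets once diet and hairpin were in the model, and in 0.00222% without them, so batch had been removed before deposit. Probe sets were named from GEO's platform annotation (28898 with 1 gene). With R 4.3.3 and limma 3.58.1, 11 group averages were fitted with condition and experiment as terms (residual df 4, prior df 2.70), and arrays were fitted within each experiment. Differences are on the log2 scale, and p-values for averages measure the spread between experiments (for oleate, that of the other groups). Precision is limited by the number of experiments and groups. The fit was tested on simulated data. Alternatives were the filter, probe set choice, scaling, blocking and leaving out arrays or experiments. The genes and lists were chosen with earlier results of these data known. Named are all 36 genes and, of each further list, up to 4 with the smallest p; array or group values are given for called genes, Sox10, S100b, Mbp, Erbb3 and the 3 smallest p per comparison. Array replicate numbers came from titles; same-numbered arrays did not deviate together.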

Additional observations from a re-analysis of the deposited data

Results flagged for a closer look

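In the first VDH15 experiment, where groups hold 4 arrays, 102 groups of arrays were tested for a single array far from the others, and 6 were marked; chance marks about 1 in 20. The S100b control array 3 read 5.19 against 4.86 to 4.90 on the other arrays, and the S100b palmitate array 1 read 4.62 against 4.76 to 4.78. Oleate array 3 read 4.43 for Mag, against 4.25 to 4.28, and palmitate array 2 read 4.35, against 4.26 to 4.27. Both genes lay below the filter. Control array 3 read 7.62 for Erbb2, against 7.35 to 7.40, and oleate array 2 read 6.06 for Gdnf, against 6.49 to 6.54.

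In SCC25 the palmitate difference ran in opposite directions in PLKO and shCD36 tumours, with every palmitate array on its side of the controls, for 3 genes. It was 1.49 against -0.47 for Scn7a, -0.65 against 0.31 for L1cam and -0.44 against 0.37 for Artn, and this difference was not tested within SCC25. The palmitate difference of Pmp22 in PLKO tumours was 0.19 in SCC25 and -0.32 in the first VDH15 experiment, again with every array on one side, and that difference was not tested. The share of all genes with either pattern is not given, so neither is shown to be particular to these genes.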

How the results depend on the processing

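For palmitate over control in PLKO tumours, where 4 genes were called, duplicateCorrelation on all arrays gave 9, the same with a replicate block 9, no experiment term 10 and only the groups compared 1 (Scn7a). Leaving out experiments or arrays gave 0 to 5, with 0 without SCC25 and 0 without the second VDH15 experiment; single differences of the 4 kept their sign. For the difference between palmitate effects (0 called) the values were 4, 4 with a replicate block and 3 with no experiment term, and 0 to 1 on leaving arrays out. For shCD36 over PLKO on palmitate (1 called, L1cam) they were 4, 3 with a replicate block and 4 with no experiment term, and 0 for the mean of all probe sets, for only the groups compared and without the 3 arrays that stood apart, an alternative chosen after seeing the data; leaving out gave 0 to 2. For palmitate over oleate (0 called) they were 3, 3 with a replicate block and 4 with no experiment term. Replicate numbers share only a number: same-numbered arrays correlated with medians of 0.03, 0.03 and -0.05. Within experiments, leaving out arrays gave 1 to 2 of 4 for SCC25 shCD36 palmitate over control, 1 to 3 of 3 for SCC25 shCD36 over PLKO on control and 4 to 5 of 8 on palmitate, 0 to 4 of 6 for the second VDH15 PLKO palmitate over control, and 4 to 6 of 8 for its shCD36 over PLKO on palmitate. Sox10, 0.02 for palmitate in PLKO tumours, was -0.0294 without the second VDH15 experiment, 0.0814 without SCC25 and -0.00258 without arrays numbered 4. The cause of these changes was not tested. Shares of all genes called under the settings of this section are not given, so its counts are not a result about these genes. Other scalings moved the median of all genes by -0.00924 and 0.0102. Oleate comparisons restricted to their own groups, or without the first VDH15 experiment, could not be fitted. Depth does not apply to arrays; 10 of 34 genes had signals too low to test.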
